A study of Mus musculus with 14 samples.

Results

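The genes described here encode the synaptic vesicle and release machinery of the nerve terminal. Membership was set by a list of 37 gene symbols, chosen by function with earlier results of these data known, and each gene was read from its probe set with the highest mean log2 intensity over the 14 arrays. Of the 37 genes, 32 had a probe set of their own among the 12393 genes that did, 31 of those 32 passed the filter on low intensity that left 8156 genes for testing, and 5 (Sv2b, Slc17a7, Rims1, Erc2 and Synj1) were not analysed here. The gene under the filter was Bsn, which encodes the active zone scaffold bassoon. The 31 tested genes fell into 6 roles, with 7 vesicle proteins, 2 vesicular transmitter transporters, 7 SNAREs and proteins that recycle them, 7 calcium sensors and release regulators, 5 Rab3 and active zone proteins and 3 endocytic proteins.

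A synaptic vesicle is filled with transmitter by a transporter in its membrane, is brought to the active zone by Rab3 and its scaffold partners, and is primed there by Unc13 proteins. SNARE proteins on the vesicle and on the plasma membrane then pair, synaptotagmin senses calcium and the membranes fuse, after which NSF and its SNAP adaptors take the SNARE complex apart and dynamin, amphiphysin and clathrin adaptors retrieve the membrane. In developing brain these genes come on as neurons leave division and extend axons, before and during the formation of synapses.

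All mice were T9H/+ heterozygotes, carriers of a chromosome translocation, so every group shares that background, and no group without a duplication was used here. In the mice called MatDp7 here, the duplication of proximal chromosome 7 was maternal and that of proximal chromosome 15 paternal, and in PatDp7 mice both origins were exchanged. Affymetrix 430A arrays were read for neonatal cortex, neonatal cerebellum and brain at 15.5 days post coitum (dpc), with 2 replicates per duplication in each, and for brain at 13.5 dpc with 1 array per duplication. The replicates are described as biological, with no statement on single animals or pools, so p-values measure the spread between these samples. Where values of all arrays are given below, the order is MatDp7 replicate 1, MatDp7 replicate 2, PatDp7 replicate 1 and PatDp7 replicate 2, and at 13.5 dpc MatDp7 and then PatDp7. The unit is the deposited intensity, which was scaled per array and cannot be compared between genes. For 1 gene it can be compared between arrays, with less certainty for the neonatal arrays numbered 1, which stood apart as described below.

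The 4 neonatal arrays numbered 1 stood apart from the rest. Their highest intensity was 43127 to 61172, against 17662 to 25858 on the other arrays. The replicate number also went with Xist, the RNA of the inactive X chromosome, which read 198 to 437 on the 6 arrays numbered 1 of the replicated tissues and 2882 to 5760 on the other 8 arrays. Both 13.5 dpc arrays were among the latter, at 5760 and 4374, so Xist was not balanced between 13.5 and 15.5 dpc. The labels give no sex, and Syn1 and Syp of the set lie on the X chromosome. At 15.5 dpc the MatDp7 replicate 2 array had a ratio of 3' to 5' β-actin signal of 1.45, against 0.97 to 1.11 on the others, and it was the highest of the 4 arrays at that age for 25 of the 31 genes, as it was for 30.2% of all genes tested. Marker lists of cortical excitatory, forebrain GABA and Purkinje and hindbrain neurons separated the neonatal tissues, and that of granule cells did not. Summed intensities of 9 measured genes of cortical excitatory neurons were 12879 to 25386 in cortex and 3003 to 6452 in cerebellum, those of 11 forebrain GABA neuron genes were 8495 to 13219 and 4455 to 7705, and those of 15 Purkinje cell and hindbrain genes were 4870 to 5343 and 10671 to 11606. Those of 10 cerebellar granule cell genes overlapped, at 5364 to 15106 in cortex and 7411 to 12239 in cerebellum, and the highest sum was on the cortex PatDp7 replicate 1 array, where Zic1 read 8108 against 2429 to 5643 in cerebellum. Without that array 7 of the 31 genes rose from 15.5 dpc to the neonatal brain, in place of the 10 given below, and the 1 gene called between regions was again called.

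Part of the release machinery rose at each age step, and none of the 31 genes tested fell. Between 13.5 and 15.5 dpc, the first age step, 9 of 31 genes were called as higher and none as lower, meaning an adjusted p under 0.05, where 2.44% of all 8156 genes rose and 3.36% fell. The median log2 difference of the 31 was 1.01, where a difference of 1 is a doubling, and it was -0.02 over all genes. Between 15.5 dpc and the mean of both neonatal tissues, the second step, 10 rose and none fell, where 4.01% of all genes rose and 7.32% fell, with a median of 0.56 against -0.02. At an unadjusted p under 0.05 limma gave 18 higher and none lower at the first step, and 14 higher and none lower at the second. At that cutoff 1671 of all 8156 genes passed in either direction at the first step and 2524 at the second. Both comparisons use the same 15.5 dpc arrays and are not independent of each other. At the second step brain part differs along with age, as the 15.5 dpc samples are labelled brain and the neonatal ones cortex or cerebellum. Age and brain part cannot be told apart there, and the neonatal brain below means cortex and cerebellum. Differences are on the scale of log2(intensity + 51.8), with standard errors from limma and p-values adjusted over all 13576 tested probe sets by the method of Benjamini and Hochberg. In bulk tissue, fewer cells of a type and less RNA per cell cannot be told apart.

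**Figure D1:**
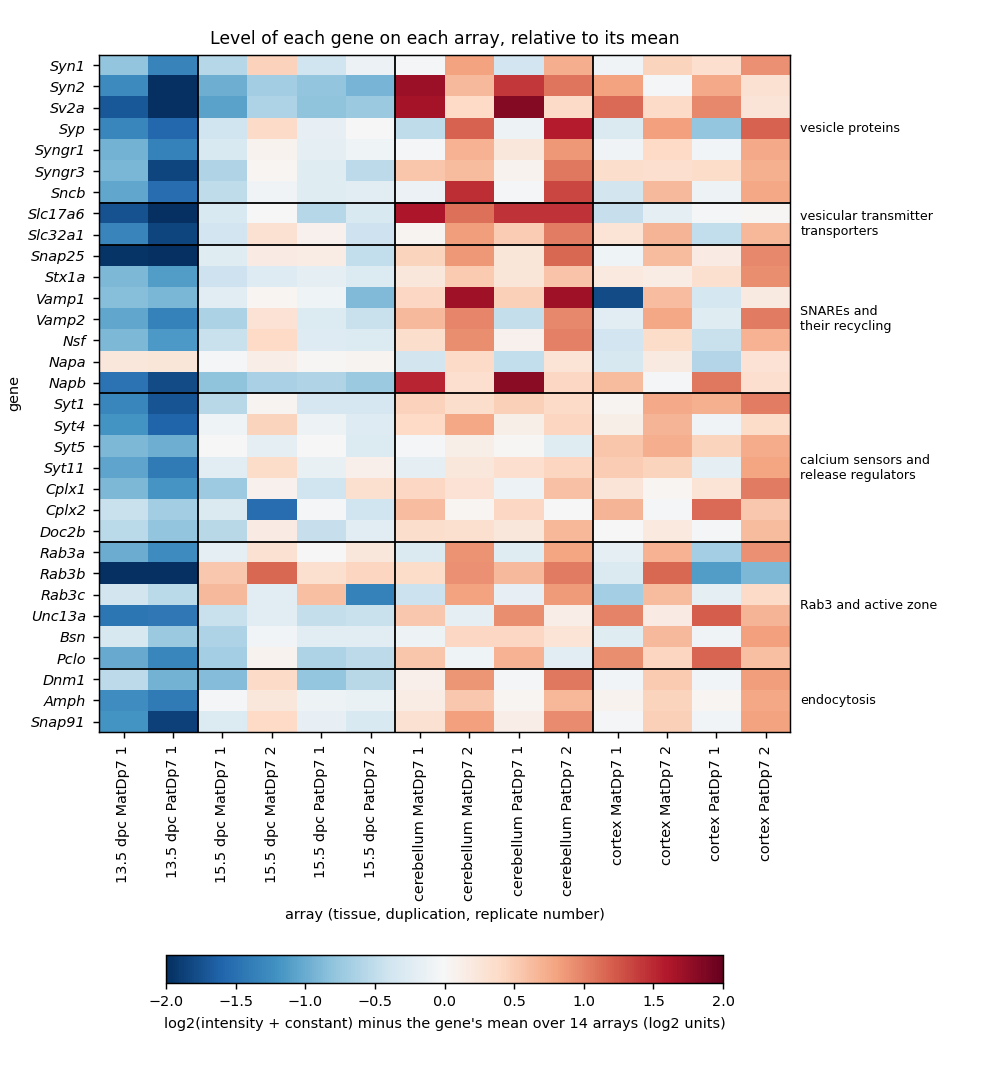
Levels of 32 genes (rows, grouped by role) on the 14 arrays (columns, ordered by age and tissue), as log2(intensity + constant) minus the gene's mean over the arrays, in log2 units, with the colours ending at -2 and 2. Both 13.5 dpc columns are blue for nearly all genes, while Napa is pale throughout, and the neonatal columns numbered 1 and 2 differ within each tissue.

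Every 15.5 dpc array lay above both 13.5 dpc arrays for 25 of the 31 genes, a pattern found in 23.5% of all genes tested. The 6 genes whose arrays overlapped between those ages were Cplx2, Dnm1, Doc2b, Napa, Rab3c and Vamp1. Every neonatal array lay above every 15.5 dpc array for 7 genes, Cplx2, Napb, Stx1a, Sv2a, Syn2, Syngr3 and Unc13a, against 5.16% of all genes. The direction was positive for 30 of 31 genes at the first step and for 29 of 31 at the second, against 48.1% and 47.8% of all genes.

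**Figure D2:**
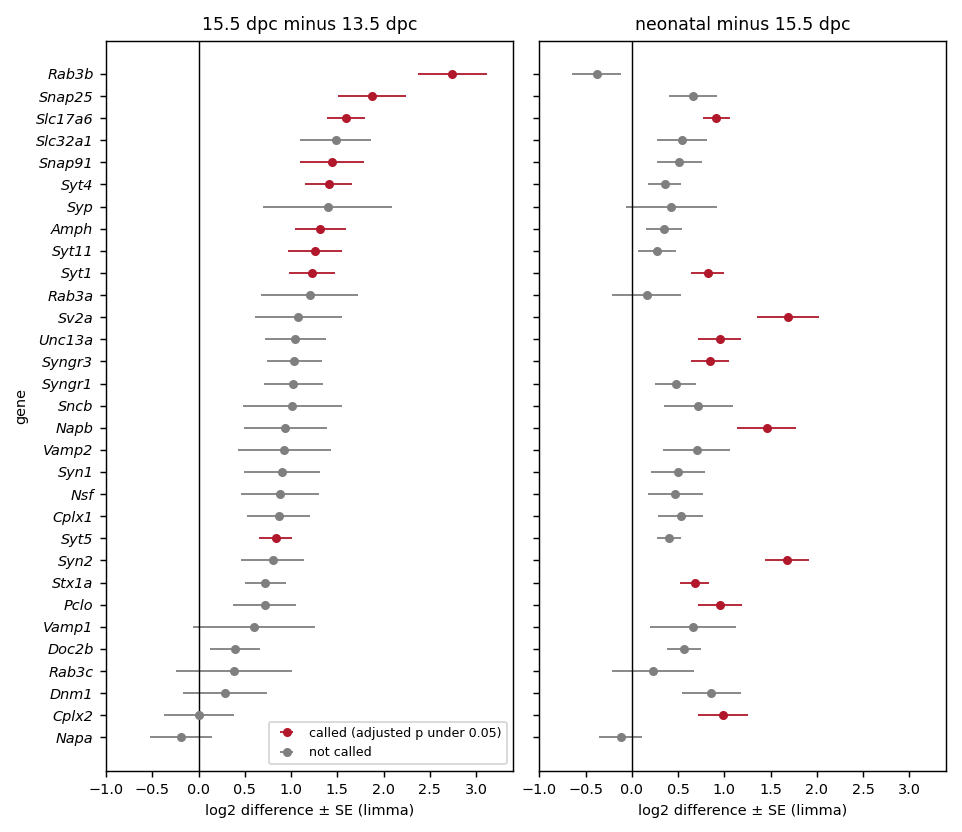
Log2 difference with its standard error for each of the 31 tested genes, 15.5 minus 13.5 dpc on the left and neonatal minus 15.5 dpc on the right, with genes in the order of the left panel and called genes in red. Rab3b is at 2.74 on the left and -0.38 on the right, while Syn2, Sv2a and Napb lie at 1.46 to 1.69 on the right.

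The count of called genes depended on single arrays, while the directions of called genes held. For the first step, where 9 genes were called, leaving out 15.5 dpc MatDp7 replicate 1 left 5, MatDp7 replicate 2 left 2, PatDp7 replicate 1 left 2 and PatDp7 replicate 2 left 3, while leaving out the 13.5 dpc MatDp7 array left 2 and the 13.5 dpc PatDp7 array left 0, with 11 at an unadjusted p under 0.05 by limma. For the second step, where 10 were called, leaving out the same 15.5 dpc arrays left 1, 5, 1 and 2, and leaving out neonatal MatDp7 replicate 1 left 5 for the cortex array and 6 for the cerebellum array. No called gene changed direction in any of these fits. The shares of all genes called in these fits are not given here. The counts alone therefore do not tell a loss of calls in this set from a loss over all genes. Each gene called at the first step was called again in 13 to 25 of up to 26 alternative settings, and each called at the second in 14 to 26. The settings were other constants, filters, normalization, probe sets, fits without the intensity trend or by replicate number, and arrays left out. Many of them, such as neonatal arrays left out, cannot change a first-step difference. They alter only its spread or the adjustment of p, so direction was fixed there.

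Promoter windows, 250 bases before to 50 bases after the RefSeq start on GRCm38.p6, were available for 31 of the 37 genes, at 39 starts. They were searched on both strands for TTCAGCACC, the left arm of RE1, which is the element bound by the neuronal gene repressor REST, for TGACGTCA, the cAMP response element, and for GGGCGG, the GC box. The RE1 arm stood in 2 of the 39 windows (5.13%), 1 each of Syn1 and Unc13a, against 0.371% of all 32851 windows. The cAMP response element stood in 2 of 39 (5.13%), of Napa and Syn1, against 1.79% of all windows, and the GC box in 24 of 39 (61.5%), against 35.7%. The 3 windows below are shown because Syn1 and Unc13a hold the RE1 arm and Slc17a6 is the gene called in 3 comparisons. Each is written 5′ to 3′ along the gene's own strand, with letters that match a motif or its reverse complement in capitals.
Syn1 (minus strand, chrX:20920869-20921168): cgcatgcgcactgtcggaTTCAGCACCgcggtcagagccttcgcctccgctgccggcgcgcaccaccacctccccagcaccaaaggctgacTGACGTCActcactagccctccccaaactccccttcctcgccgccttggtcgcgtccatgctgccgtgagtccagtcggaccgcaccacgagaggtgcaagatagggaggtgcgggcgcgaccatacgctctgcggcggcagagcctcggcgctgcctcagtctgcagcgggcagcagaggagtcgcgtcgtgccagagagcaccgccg
Unc13a (minus strand, chr8:71671708-71672007): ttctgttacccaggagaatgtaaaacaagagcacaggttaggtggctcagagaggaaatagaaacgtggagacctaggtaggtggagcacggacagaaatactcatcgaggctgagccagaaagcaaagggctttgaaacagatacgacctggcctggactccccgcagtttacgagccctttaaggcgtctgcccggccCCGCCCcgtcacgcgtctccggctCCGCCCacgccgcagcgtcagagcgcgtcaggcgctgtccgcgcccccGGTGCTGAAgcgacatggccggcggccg
Slc17a6 (plus strand, the first of 2 starts, chr7:51621580-51621879): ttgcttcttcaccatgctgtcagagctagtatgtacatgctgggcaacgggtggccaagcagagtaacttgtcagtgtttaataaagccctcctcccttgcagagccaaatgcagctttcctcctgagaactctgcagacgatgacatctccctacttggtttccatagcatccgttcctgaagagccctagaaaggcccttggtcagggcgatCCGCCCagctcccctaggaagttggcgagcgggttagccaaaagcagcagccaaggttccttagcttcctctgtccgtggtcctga
In the Syn1 window the first run of capitals is the RE1 arm and the second is the cAMP response element. The Unc13a window holds a pair of GC boxes and then the RE1 arm, all on the opposite strand. In the Slc17a6 window the single run is a GC box on the opposite strand. A match describes the letters only, and binding was not measured.

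Among vesicle proteins, 3 of 7 rose from 15.5 dpc to the neonatal brain and none was called from 13.5 to 15.5 dpc. Syn2 encodes synapsin 2, a phosphoprotein that holds vesicles in the reserve pool. Its intensity was 342 and 183 at 13.5 dpc, 433, 537, 496 and 449 at 15.5 dpc, 1600, 869, 1553 and 1118 in cortex, and 3059, 1436, 2481 and 1953 in cerebellum. All 8 neonatal arrays exceeded all 4 at 15.5 dpc, and the log2 difference was 1.68 ± 0.24 (SE, adjusted p = 0.00618). A second Syn2 probe set gave 1.43 (adjusted p = 0.0175), and the call held in 26 of 26 alternative settings.

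Sv2a, a vesicle membrane glycoprotein that binds synaptotagmin, gave 430 and 318 at 13.5 dpc, 690, 968, 842 and 878 at 15.5 dpc, 3352, 1982, 3000 and 1818 in cortex, and 4877, 2013, 5500 and 1980 in cerebellum. Its lowest neonatal array was above its highest 15.5 dpc array, and it rose by 1.69 ± 0.34 (SE, adjusted p = 0.0176). Within the neonatal arrays those numbered 1 read 3000 to 5500 and those numbered 2 read 1818 to 2013. Syngr3, synaptogyrin 3, is a 4-pass vesicle protein, and it gave 449 and 213 at 13.5 dpc, 567, 914, 741 and 602 at 15.5 dpc, 1148, 1132, 1168 and 1494 in cortex, and 1327, 1415, 935 and 1910 in cerebellum. It rose by 0.85 ± 0.21 (SE, adjusted p = 0.0343), with no overlap between the ages. From 13.5 to 15.5 dpc its brightest probe set gave 1.03 ± 0.29 (SE, adjusted p = 0.0821) and a second probe set was called at 1.78 (adjusted p = 0.0192), while at the second step that probe set gave 0.57 (adjusted p = 0.134).

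The other 4 vesicle proteins were called at neither age step. From 13.5 to 15.5 dpc they gave 0.90 for Syn1 (synapsin 1), 1.39 for Syp (synaptophysin), 1.02 for Syngr1 (synaptogyrin 1) and 1.01 for Sncb (β-synuclein), and from 15.5 dpc to the neonatal brain 0.50, 0.43, 0.47 and 0.72. Syp differed most with the replicate number among the neonatal arrays, at 692 to 1126 on those numbered 1 and 2176 to 3706 on those numbered 2. The arrays numbered 1 thus overlapped the 15.5 dpc range of 907 to 1602 for Syp, and those numbered 2 lay above it.

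Of the transporters, Slc17a6 was called in both age steps and Slc32a1 in neither. Slc17a6 encodes VGLUT2, which loads glutamate into vesicles and marks subcortical and early excitatory neurons. Its intensity was 297 and 230 at 13.5 dpc, 891, 1115, 730 and 887 at 15.5 dpc, 789, 971, 1097 and 1125 in cortex, and 3522, 2446, 3107 and 3098 in cerebellum. The 13.5 dpc arrays were lowest, the 15.5 dpc and cortex ranges overlapped, and all 4 cerebellum arrays were above every other array. It rose by 1.60 ± 0.21 (SE, adjusted p = 0.00626) from 13.5 to 15.5 dpc and by 0.91 ± 0.15 (SE, adjusted p = 0.00952) from 15.5 dpc to the neonatal mean. The second difference was 1.70 in cerebellum (adjusted p = 0.00275) and 0.13 in cortex (adjusted p = 0.622). A second Slc17a6 probe set gave 0.83 (adjusted p = 0.0761) at the first step and 0.95 (adjusted p = 0.0114) at the second.

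Slc32a1 encodes VGAT, the vesicular transporter of GABA and glycine. It gave 194 and 121 at 13.5 dpc, 422, 712, 602 and 411 at 15.5 dpc, 693, 938, 384 and 925 in cortex, and 586, 1043, 821 and 1202 in cerebellum. Both 13.5 dpc arrays were below the other 12, and the difference at the first step was 1.48 ± 0.38 (SE, adjusted p = 0.0624). At the second step the ranges overlapped, with 0.54 ± 0.27 (SE, adjusted p = 0.208). Another Slc32a1 probe set lay under the filter. Fitted without the filter, it gave -0.05 (adjusted p = 0.990) at the first step and 0.44 (adjusted p = 0.445) at the second.

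**Figure D3:**
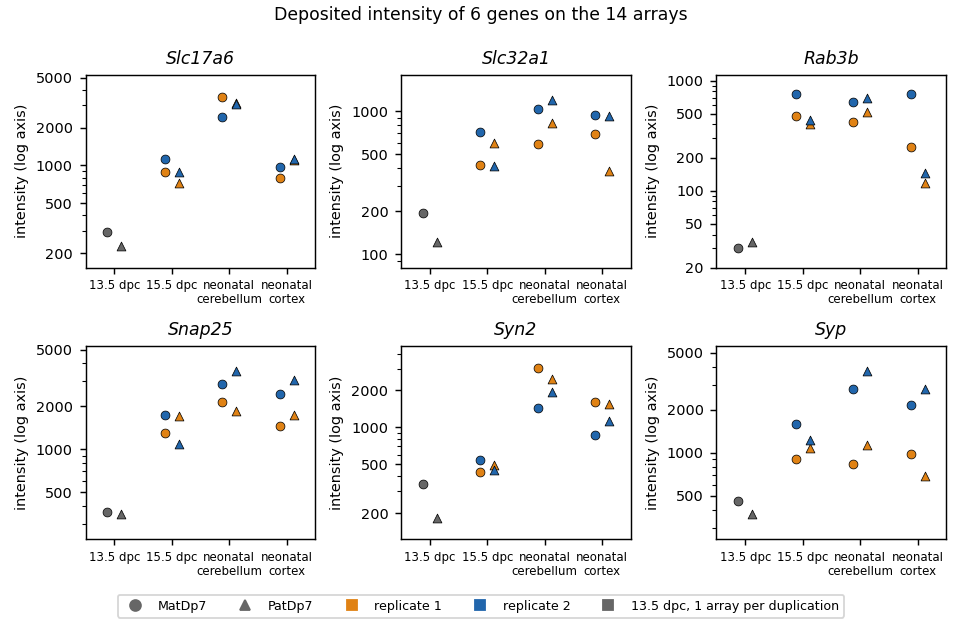
Deposited intensity (log axes, arbitrary units) of Slc17a6, Slc32a1, Rab3b, Snap25, Syn2 and Syp on each array, by age and tissue, with MatDp7 as circles, PatDp7 as triangles, replicate 1 in orange, replicate 2 in blue and 13.5 dpc in grey. Slc17a6 in cerebellum lies at 2446 to 3522 and in cortex at 789 to 1125, and in both neonatal tissues the replicate colours separate for Syn2 and, in the opposite order, for Syp.

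Among SNAREs and the proteins that recycle them, Snap25 rose at the first step, and Napb and Stx1a at the second. Snap25 encodes the plasma membrane SNARE SNAP-25. Its intensity was 361 and 349 at 13.5 dpc, 1305, 1744, 1720 and 1095 at 15.5 dpc, 1464, 2446, 1749 and 3079 in cortex, and 2136, 2884, 1852 and 3524 in cerebellum. Both 13.5 dpc arrays were far below the rest, and the first difference was 1.88 ± 0.37 (SE, adjusted p = 0.0235). The second difference, 0.66 ± 0.26 (SE, adjusted p = 0.124), was not called.

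Stx1a, syntaxin 1A, is the other plasma membrane SNARE, with 688 and 581 at 13.5 dpc, 977, 1098, 1156 and 1085 at 15.5 dpc, 1518, 1473, 1660 and 2578 in cortex, and 1551, 1923, 1571 and 1989 in cerebellum. No neonatal array overlapped the 15.5 dpc range, and Stx1a rose by 0.68 ± 0.15 (SE, adjusted p = 0.0267), while a second probe set gave 0.41 (adjusted p = 0.354). Napb encodes β-SNAP, the brain form of the adaptor that recruits NSF to spent SNARE complexes, and it gave 573 and 454 at 13.5 dpc, 950, 1068, 1099 and 988 at 15.5 dpc, 2664, 1648, 3560 and 2153 in cortex, and 4977, 2152, 6055 and 2286 in cerebellum. It rose by 1.46 ± 0.32 (SE, adjusted p = 0.0229), and 3 of its 4 other tested probe sets were called as well, at 1.72, 1.87 and 1.88, while the fourth gave 0.71 (adjusted p = 0.150).

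Napa, which encodes α-SNAP, the adaptor expressed in most tissues, was the 1 gene of the set whose brightest probe set was positive at neither step. It read 1822 and 1833 at 13.5 dpc, 1506 to 1703 at 15.5 dpc and 1008 to 2023 in the neonatal brain, with differences of -0.19 (adjusted p = 0.855) and -0.12 (adjusted p = 0.742). A second Napa probe set gave 0.18 (adjusted p = 0.854) and 0.01 (adjusted p = 0.970). The vesicle SNAREs Vamp1 and Vamp2 and the ATPase Nsf were not called, with 0.60, 0.93 and 0.88 at the first step and 0.66, 0.70 and 0.47 at the second. Vamp1 was dim, at 21 on the cortex MatDp7 replicate 1 array, which lies under the added constant.

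Of the calcium sensors and release regulators, 4 of 7 rose at the first step and 2 of 7 at the second. Syt1, synaptotagmin 1, is the sensor for fast synchronous release. It gave 544 and 393 at 13.5 dpc, 954, 1484, 1113 and 1120 at 15.5 dpc, 1478, 2435, 2357 and 2963 in cortex, and 1987, 1828, 2013 and 1877 in cerebellum, with 13.5 dpc lowest and 15.5 dpc overlapping the neonatal range on 1 cortex array. It rose by 1.23 ± 0.25 (SE, adjusted p = 0.0282) at the first step and by 0.82 ± 0.18 (SE, adjusted p = 0.0224) at the second. A second probe set was called at both steps, with 1.11 (adjusted p = 0.0181) and 1.21 (adjusted p = 0.00407).

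Syt4, a synaptotagmin found on dense-core and other secretory vesicles, gave 554 and 405 at 13.5 dpc, 1261, 1847, 1240 and 1108 at 15.5 dpc, 1461, 2172, 1269 and 1751 in cortex, and 1778, 2337, 1456 and 1830 in cerebellum. It rose at the first step by 1.40 ± 0.26 (SE, adjusted p = 0.0190), and the second difference was 0.35 (adjusted p = 0.214). A second Syt4 probe set was not called at the first step, with 1.29 (adjusted p = 0.143). Syt11, a synaptotagmin that does not bind calcium, gave 885 and 678 at 13.5 dpc, 1619, 2464, 1699 and 2029 at 15.5 dpc, 2702, 2602, 1645 and 3297 in cortex, and 1667, 2217, 2389 and 2572 in cerebellum. It rose at the first step by 1.26 ± 0.29 (SE, adjusted p = 0.0437), with 0.27 (adjusted p = 0.389) at the second. Neither of its other 2 probe sets was called at the first step, with 1.16 (adjusted p = 0.236) and 0.81 (adjusted p = 0.0704). For both genes the 15.5 dpc and neonatal ranges overlapped.

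Syt5, a calcium-binding synaptotagmin, rose at the first step by 0.83 ± 0.18 (SE, adjusted p = 0.0355). Its intensity was 223 and 209 at 13.5 dpc, 468, 402, 465 and 372 at 15.5 dpc, 704, 797, 651 and 807 in cortex, and 451, 508, 473 and 382 in cerebellum. At the second step it gave 0.73 in cortex (adjusted p = 0.0301) and 0.08 in cerebellum (adjusted p = 0.771). Cplx2 encodes complexin 2, which clamps and then promotes fusion of the primed vesicle, and it gave 921 and 764 at 13.5 dpc, 1027, 409, 1227 and 952 at 15.5 dpc, 2070, 1228, 2843 and 1861 in cortex, and 1967, 1300, 1708 and 1270 in cerebellum. The 15.5 dpc MatDp7 replicate 2 array was the lowest of all 14 for Cplx2, the first difference was 0.00 (adjusted p = 0.998), and it rose at the second step by 0.98 ± 0.27 (SE, adjusted p = 0.0479). Cplx1 and Doc2b, a complexin and a high-affinity calcium sensor, were not called, with 0.86 and 0.39 at the first step and 0.53 and 0.56 at the second, where another Doc2b probe set was called at 0.81 (adjusted p = 0.0280).

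In the Rab3 and active zone group, Rab3b rose at the first step and Unc13a and Pclo at the second. Rab3b is a vesicle GTPase of the Rab3 family, and it gave 30 and 34 at 13.5 dpc, 479, 757, 406 and 443 at 15.5 dpc, 249, 757, 117 and 145 in cortex, and 419, 640, 522 and 700 in cerebellum. Both 13.5 dpc values lay under the added constant, so the difference of 2.74 ± 0.37 (SE, adjusted p = 0.00673) depended on it, and it ranged from 1.99 to 3.45 over the alternative settings. Every 15.5 dpc array read 406 or more, and the cortex arrays ran from 117 to 757. At the second step Rab3b gave -0.38 ± 0.26 (SE, adjusted p = 0.342).

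Unc13a encodes Munc13-1, which primes vesicles for fusion, and it gave 81 and 82 at 13.5 dpc, 215, 259, 209 and 213 at 15.5 dpc, 671, 355, 781 and 526 in cortex, and 472, 267, 634 and 344 in cerebellum. It rose at the second step by 0.95 ± 0.23 (SE, adjusted p = 0.0336), with every neonatal array above 259, the highest at 15.5 dpc. Pclo encodes piccolo, a giant scaffold of the active zone, and it gave 188 and 142 at 13.5 dpc, 247, 451, 260 and 282 at 15.5 dpc, 868, 597, 1021 and 676 in cortex, and 655, 403, 727 and 359 in cerebellum. It rose by 0.95 ± 0.24 (SE, adjusted p = 0.0381), with overlap, as the 15.5 dpc MatDp7 replicate 2 array, at 451, was above 2 cerebellum arrays, and a second probe set gave 1.46 (adjusted p = 0.0761). Rab3a and Rab3c were not called at either step, with 1.20 and 0.38 and then 0.16 and 0.23. Bsn, fitted without the filter, gave 0.25 (adjusted p = 0.864) and 0.55 (adjusted p = 0.201).

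Of the endocytic proteins, 2 of 3 rose at the first step and none at the second. Amph encodes amphiphysin, which brings dynamin to the neck of a forming vesicle, and it gave 375 and 328 at 13.5 dpc, 930, 1127, 893 and 873 at 15.5 dpc, 1004, 1324, 986 and 1673 in cortex, and 1071, 1412, 987 and 1546 in cerebellum. The ages did not overlap at the first step, and Amph rose by 1.32 ± 0.27 (SE, adjusted p = 0.0291). Snap91 encodes AP180, a clathrin assembly protein of nerve terminals, with 919 and 554 at 13.5 dpc, 1789, 2875, 1922 and 1735 at 15.5 dpc, 2128, 3020, 2090 and 3834 in cortex, and 2689, 3856, 2376 and 4206 in cerebellum. It rose by 1.45 ± 0.35 (SE, adjusted p = 0.0473). Dnm1, the neuronal dynamin that cuts the vesicle free, gave 0.28 (adjusted p = 0.840) and 0.86 (adjusted p = 0.108), and its 15.5 dpc MatDp7 replicate 2 array read 2879 where the other 3 read 1191 to 1485.

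The neonatal result differed between the arrays numbered 1 and those numbered 2, for which the labels give no shared day, litter or scan. With the replicate number as a term among the neonatal arrays, 17 of 31 genes (54.8%) were higher on those numbered 2, against 21.5% of all genes. A further 6 (19.4%) were lower, which is near the 19.1% of all genes. The 6 that were lower on the arrays numbered 2 were Sv2a (-1.04), Napb (-0.99), Unc13a (-0.72), Syn2 (-0.68), Pclo (-0.66) and Cplx2 (-0.58), all of them genes called as higher in the neonatal brain. The largest in the other direction were Syp (1.60), Vamp1 (1.36), Sncb (1.21), Rab3a (1.17), Rab3c (1.03) and Vamp2 (1.01), none of them called in the pooled neonatal comparison. Slc17a6 differed by -0.05 and Syt5 by 0.08. Same-numbered neonatal groups deviated together (correlation 0.71 to 0.82), and with this term in the fit, a replicate block, the differences between ages and regions kept their size while their standard errors were smaller for each of the 31 genes. With it 25 of 31 genes were higher and none lower at the first step, where 12% of all genes were higher and 10.2% lower, and 25 were higher and none lower at the second, where 18.6% were higher and 23.1% lower. The block takes the shared deviation of same-numbered neonatal arrays out of the error, and the fit without it counts those arrays as independent. At the second step the p-values of neither fit therefore allow for a deviation shared within each replicate number.

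**Figure D4:**
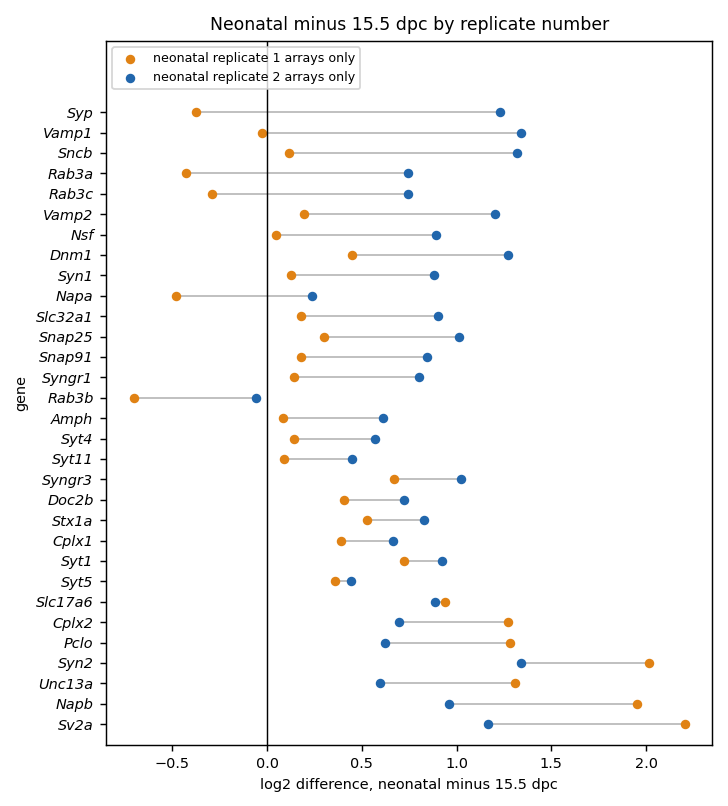
Log2 difference of neonatal minus 15.5 dpc for each of the 31 genes, computed from the neonatal arrays numbered 1 (orange) or 2 (blue) against the same 4 arrays at 15.5 dpc. Syp is at -0.37 and 1.23 and Sv2a at 2.21 and 1.17, so the order of the colours is opposite at the ends of the plot.

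Against the same 15.5 dpc arrays, the neonatal arrays numbered 1 alone gave 10 genes higher and 2 lower, where 21.4% of all genes were higher and 25.8% lower, and a median of 0.19 over the 31. The 2 lower genes were Rab3b (-0.70) and Napa (-0.48). Those numbered 2 alone gave 22 higher and none lower, where 7.17% were higher and 8.64% lower, and a median of 0.85. In 5 genes the sign differed between the arrays numbered 1 and those numbered 2, with -0.37 and 1.23 for Syp, -0.43 and 0.74 for Rab3a, -0.29 and 0.74 for Rab3c, -0.03 and 1.34 for Vamp1 and -0.48 and 0.24 for Napa. Of the 10 genes called on all arrays, Syn2 (2.02 and 1.34), Sv2a (2.21 and 1.17), Napb (1.95 and 0.96), Slc17a6 (0.94 and 0.89), Syt1 (0.72 and 0.92), Stx1a (0.53 and 0.83), Syngr3 (0.67 and 1.02), Unc13a (1.31 and 0.59), Pclo (1.28 and 0.62) and Cplx2 (1.27 and 0.69) were positive in both. The part of the Xist level or of array brightness in this split was not tested.

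Between the neonatal regions, 1 of 31 genes was called without the replicate block, Slc17a6, which was lower in cortex, and 5 with it. It gave -1.56 ± 0.17 (SE, adjusted p = 0.00428) for cortex minus cerebellum, where 0.172% of all genes were lower in cortex and 0.221% higher. Mean intensity was 995 ± 153 in cortex and 3043 ± 444 in cerebellum (SD, n = 4 each), and a second probe set gave -1.30 (adjusted p = 0.0230). The call held in 25 of 26 alternative settings, with differences of -1.773 to -1.355. The exception was the neonatal arrays numbered 2 alone, a fit with 1 array in each neonatal group. Slc17a6 was the 1 gene of the 31 (3.23%) with every cerebellum array above every cortex array, against 3.11% of all genes. Syt5 was the 1 gene (3.23%) with the reverse, against 3.19%, so both counts were near the share of all genes.

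Syt5 read 740 ± 75.4 in cortex and 454 ± 53.2 in cerebellum (SD, n = 4 each), a difference of 0.65 ± 0.15 (SE, adjusted p = 0.177) that was called with the neonatal replicate block (adjusted p = 0.0279) and not without it. The same held for 3 genes that were lower in cortex. Rab3b gave -1.03 (adjusted p = 0.377 without the block and 0.0170 with it), Vamp1 -1.41 (adjusted p = 0.592 and 0.0141) and Syn2 -0.76 (adjusted p = 0.544 and 0.0154). With the block 1.63% of all genes were higher in cortex and 1.99% lower, and a block on all 12 numbered arrays left 1 of the 31 genes lower and none higher. The median of the 31 was -0.19, with 22 negative, against 0.02 for all 8156 genes, of which 3818 were negative. That median depended on single arrays. It was 0.012 without the cortex PatDp7 replicate 1 array and 0.0723 without the cerebellum PatDp7 replicate 2 array, and negative with any other array left out. Against 15.5 dpc, 5 genes were higher in cortex (Syn2, Syt1, Syt5, Unc13a and Pclo) and 4 in cerebellum (Syn2, Sv2a, Slc17a6 and Napb), where 1.7% and 2.72% of all genes were higher. Apart from the test between regions above, those lists were not tested against each other.

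Between PatDp7 and MatDp7 brains, no gene of the set was called in either direction by limma, where 0.0368% of all genes were higher and 0.0245% lower. The comparison asks whether levels follow the parent of origin of the duplicated segments, averaged over the 3 replicated tissues. At an unadjusted p under 0.05, 1 of 31 was found, Rab3b, with -0.56 ± 0.25 (SE, adjusted p = 0.9999). At that cutoff 104 of all 8156 genes passed in either direction. The differences ran from -0.56 to 0.36 with a median of 0.02. For 27 genes the 95% interval lay within -1 and 1, and for Syp, Vamp1, Rab3b and Rab3c it did not, the outermost bounds being -1.13 and 1.14.

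Slc17a6, Napa and Syt5 lie on chromosome 7 and Syngr1 on chromosome 15, and whether they fall within the duplicated segments was not determined. Their parental differences were 0.04, -0.07, -0.08 and 0.13. Tissues were not shown to differ in the parental effect, since the F-test called 0 of the 31 genes and 0% of all genes, none of the 31 had an unadjusted p under 0.05, and the smallest was 0.0685 for Rab3b. Rab3b gave -1.43 in cortex, where the MatDp7 arrays read 249 and 757 and the PatDp7 arrays 117 and 145, 0.20 in cerebellum and -0.46 at 15.5 dpc.

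Other lists of neuronal genes give the setting for these values. Of 54 other presynaptic genes, 1 rose and 2 fell at the first step, Syt9 (0.76) and Snap23 (-1.06) and Syngr2 (-1.03), and 4 rose and 2 fell at the second, with Dnm3 (1.07), Rab27b (0.88) and Dnajc5 (0.69) among the former. Their medians were 0.25 and 0.19, against 1.01 and 0.56 for the 31 genes. The set and the lists in this paragraph were chosen with earlier results of these data known. Differences between their medians are therefore no independent evidence about the set. Of 20 postsynaptic genes, none was called at the first step and 4 rose at the second, among them Glrb (0.91), Gabra2 (0.76) and Gria3 (0.74), with medians of 0.60 and 0.76. Of 28 neuronal cytoskeleton and differentiation genes, 9 rose at the first step, with Scg3 (1.92), Tubb3 (1.60) and Stmn2 (1.05) among them, and 4 at the second, with Thy1 (1.65), Nefh (0.98) and Scg3 (0.64), and medians of 1.32 and 0.53.

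Summed markers of other cells also differed over the same ages. Summed intensity of the 28 measured neuronal cytoskeleton genes, of 29 listed, was 39621 to 47582 at 13.5 dpc, 90421 to 108102 at 15.5 dpc and 117805 to 168168 in the neonatal tissues. That of 29 of 30 proliferation genes was 40000 to 41115, 19912 to 26547 and 9798 to 12057, and 10 of 25 tested fell at the first step and 19 at the second. For 10 of 14 blood genes the sums were 31848 to 37703, 3531 to 8876 and 920 to 1912, and for 14 vessel and meninges genes they were 39497 to 40149, 13218 to 16924 and 6925 to 14433. For 21 of 22 astrocyte and oligodendrocyte genes the sums were 11915 to 12760, 15049 to 17085 and 16807 to 35505, and 3 of 17 tested rose at the first step and 4 at the second. Those of 10 microglia genes were 4973 to 5297, 3466 to 4612 and 3083 to 4674, and those of 18 of 19 neural progenitor genes 20010 to 20629, 23343 to 32830 and 18459 to 25187. No marker in these lists was at 0 on any array. The part of cell composition in the rise of the release machinery was not tested.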

How the data were processed

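The deposited values are linear signal intensity per probe set, made by the authors with MAS5 per the submitters' processing notes, with no version given there. The trimmed mean of each array, with 2% left out at each end, was 499.96 to 499.97, so the deposited intensity was used without further scaling. The table holds 22690 probe sets. The platform annotation names 1 gene for 20380 of them, several for 691 and none for 1555, and 64 are controls. A gene with several probe sets was read from its brightest one.

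From the intensities, log2 values were computed with an added constant of 51.7558, which is the 20th percentile over the table. Probe sets at or above the 40th percentile of mean log2 were tested with limma 3.58.1 in R 4.3.3, with a mean for each of 8 groups, an intensity trend, 6 residual and 3.15 prior degrees of freedom, and calls at a Benjamini-Hochberg adjusted p under 0.05. Each 13.5 dpc group is 1 array, whose spread was taken to equal that of the replicated groups. The number of arrays limits the precision. The members and lists were chosen with earlier results of these data known. Every member is accounted for, with values of each array for members called in at least 1 comparison and for the transporters, and from other lists at most 3 genes with the smallest p are named. In data simulated for the first age step with 50 probe sets changed at each size, 32% were recovered at a log2 size of 1 and 82% at 2, and for the second step 44% and 92%.

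Same-numbered samples deviated together in the 6 pairs of neonatal groups (correlation 0.71 to 0.82) and less or not at all in the other 9 (-0.09 to 0.26), and the labels do not say what the 2 numbers share. Alternatives covered the added constant, the filter, normalization, the intensity trend, the replicate number, the probe sets of a gene and each array left out. Promoter sequences are those of RefSeq on GRCm38.p6.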

Additional observations from a re-analysis of the deposited data

Results flagged for a closer look

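For each of the 31 tested genes, the 4 arrays of cortex, cerebellum and 15.5 dpc brain were tested for a single array far from the others, 93 tests in all. Chance alone flags about 1 in 20 where the 4 arrays are alike. Here they differ by duplication and replicate number, so that rate need not apply. There were 2 such arrays. Syngr3 read 1494 on the cortex PatDp7 replicate 2 array, with the other 3 cortex arrays at 1132 to 1168. Unc13a read 259 on the 15.5 dpc MatDp7 replicate 2 array, with the other 3 at 209 to 215.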

How the results depend on the processing

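Counts are of the 31 genes called as higher unless stated, with 9 from 13.5 to 15.5 dpc and 10 from 15.5 dpc to the neonatal brain as reported. With 1 array left out in turn, the first count ran from 2 to 10 and the second from 1 to 10. Leaving out a 13.5 dpc array, an alternative chosen after seeing the data, gave 2 without MatDp7 and 0 without PatDp7 at the first step. Median scaling gave 4 and 7, raised the median of all genes at the first step from -0.02 to 0.11, and gave 11 genes of all tested higher and 17 lower in cortex in place of 18 and 14. A replicate block on the neonatal arrays gave 25 and 25, and in cortex against cerebellum 1 higher and 4 lower. A replicate block on all 12 numbered arrays gave 19 at the second step and 18 at the first. With the neonatal arrays numbered 1 alone the counts were 20 and 10, with 2 lower, and with those numbered 2 alone 20 and 22, with 0 lower in cortex by limma, where 5 were lower at an unadjusted p under 0.05. The cause of these changes was not tested. Shares of all genes are given above for the replicate block on the neonatal arrays and, at the second step, for each replicate number alone. For the other settings, counts of the set do not tell a change in the set from a change over all genes. The other constants, filters and normalization, the fit without an intensity trend and the median over probe sets kept both counts at 7 to 12. Slc17a6 kept its call as lower in cortex in every setting but the arrays numbered 2 alone. No called gene changed direction in any setting, while among those not called 3 of 22, 5 of 21, 14 of 30 and 24 of 31 did for the first step, the second, the regions and parental origin. No parental call was made in any setting. The number of arrays limits the precision, and dim genes such as Rab3b at 13.5 dpc depend on the added constant.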
